A study of Mus musculus with 84 samples.

Results

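Obesity by genotype and obesity by diet were compared in epididymal fat, the large visceral depot of the male mouse, between ob/ob mice on a normal diet (ob/ob ND, 3 mice) and wild-type mice on a high-fat diet (WT HFD, 3 mice). The libraries were chosen by genotype, diet and tissue alone, and they are 6 of the 84 RNA-seq libraries of the series, which covers 7 tissues of 12 mice. The ob allele is a nonsense mutation of Lep, the leptin gene, so that ob/ob mice make no working leptin, while WT mice carry the intact gene. All mice were dissected after 20 weeks, and the labels do not say whether this is age or time on the diet. Lean WT mice on the normal diet (WT ND, 3 mice) served as the reference, and ob/ob mice on the high-fat diet (ob/ob HFD, 3 mice) are described by their levels only. Genotype and diet differ together between the ob/ob ND and WT HFD groups, so their parts in a difference cannot be told apart, and the labels do not give the strain of either genotype. Nothing in the labels describes the mice beyond a number, so p-values measure the spread between these samples.

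White adipocytes store triglyceride in a single large droplet, make fatty acids from glucose when insulin is high, and release them under adrenergic and natriuretic signals. They also secrete leptin, which reports the size of the fat stores to the brain, and adiponectin. In obese epididymal fat dying adipocytes are ringed by macrophages that take up lipid, so a library of the whole depot is a mixture whose makeup changes along with the adipocytes themselves. In such bulk samples fewer cells of a type and less RNA per cell cannot be told apart.

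The obese groups did not carry the same amount of fat in this depot. Epididymal fat weighed 1.14, 1.412 and 1.497 in the WT HFD mice and 2.583, 2.369 and 2.964 in the ob/ob ND mice (no unit is named, and body weights in the same table were 46.4 to 50.1 and 67.3 to 71.3). Lean depots weighed 1.521, 1.307 and 1.309, so the diet-fed and lean ranges overlapped, and the ob/ob depot was 1.955 times the diet-fed one. Retroperitoneal fat was 2.584 times and mesenteric fat 1.396 times as heavy in ob/ob ND as in WT HFD mice. Lean mass, fasting glucose and brain weight were lower in ob/ob ND mice. Circulating leptin was listed at 0 in the ob/ob ND mice and in the lean mice, and at 850.2, 636 and 637 (ng/ml per the header) in the WT HFD mice. Of the 18 measures, 12 did not overlap between the groups, each with a two-sided exact permutation p of 0.1 (adjusted 0.15), which is the smallest that 3 mice against 3 can give.

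Sequencing depth was even, with 12789393 to 14079794 counted fragments in the 6 libraries, and 8.31 to 11.2% of the counts of a library lay in its 10 most abundant genes. The tissue label held: adipocyte genes were abundant in all libraries, and 15 adipocyte markers summed to 4855, 8054 and 15588 CPM (read counts scaled to a common library size) in WT HFD and to 15258, 20490 and 21554 in ob/ob ND, against 53431 to 66961 in lean fat. The 12 macrophage markers summed to 17550, 17521 and 9248 CPM in WT HFD, to 10867, 7578 and 6347 in ob/ob ND and to 1787 to 1887 in lean fat. On both sums the ob/ob ND libraries lay between lean fat and WT HFD mice 1 and 2, and WT HFD mouse 3 lay within the ob/ob ND range. These sums move with many of the results below, and their part in those results was not tested. That library stood apart from its own group: its counts differed from those of WT HFD mice 1 and 2 with a chi-square per degree of freedom of 108 and 64.1, against 20.0 between mice 1 and 2. Sperm transcripts of the adjoining epididymis (Prm1, Prm2, Tnp1) were traces, at 2.56 to 6.42 CPM each in ob/ob ND mouse 2 and at or below 0.600 CPM in the other 5 libraries. Mesothelial markers summed to 515 CPM in that mouse and to 114 to 393 CPM in the others.

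**Figure D1:**
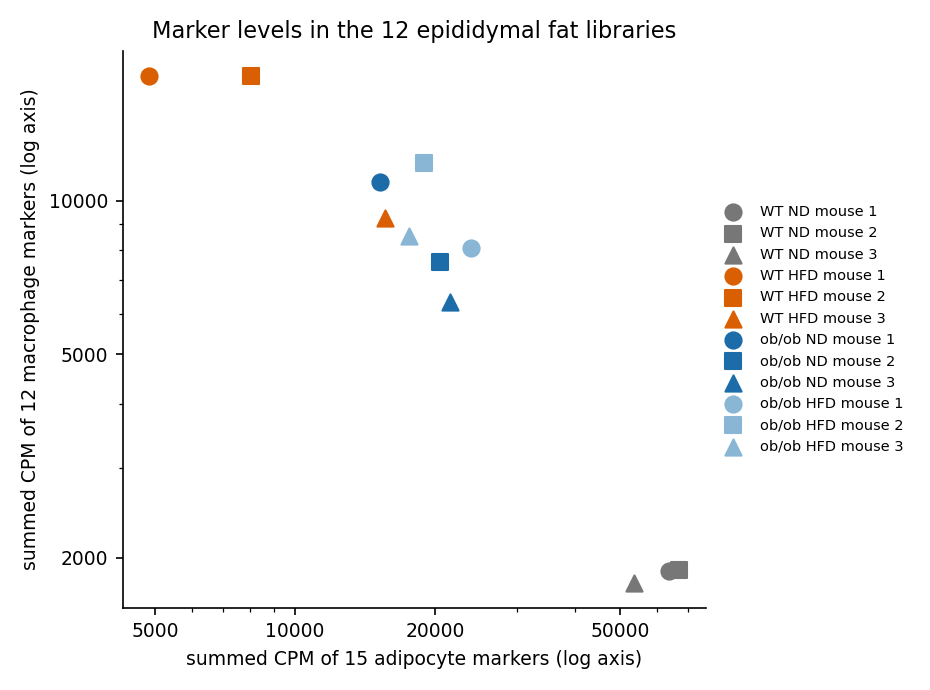
Each point is 1 of the 12 epididymal fat libraries, placed by the summed CPM of 15 adipocyte markers (horizontal, log axis) and of 12 macrophage markers (vertical, log axis), with colour for group and shape for mouse number. WT HFD mice 1 and 2 sit at the upper left, the 3 lean libraries at the lower right, and WT HFD mouse 3 lies among the ob/ob libraries.

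Of 15676 genes tested, 3809 (24.3%) differed between ob/ob ND and WT HFD at an adjusted p under 0.05 by edgeR's quasi-likelihood test. They are said to be called, or to rise or fall in ob/ob ND fat relative to WT HFD fat; values after ± are the fit's standard errors, on the log2 scale. Of these, 2116 (13.5% of the genes tested) were higher and 1693 (10.8%) lower in ob/ob ND, and 1175 changed at least 2-fold, 763 of them upward. The shares of 13.5% and 10.8% are the background for the list counts below. The libraries of the groups did not overlap for 3537 of the called genes. This largely follows from the calls themselves, and non-overlap was not counted over all genes tested. More genes separated each obese group from lean fat than separated the obese groups. Against WT ND, 7558 genes were called in ob/ob ND (48.2%: 25.2% higher, 23% lower) and 9227 in WT HFD (58.9%: 28.6% higher, 30.3% lower). Both of those comparisons share the lean libraries, and their values are given only side by side.

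How many genes were called depended on single libraries. Without WT HFD mouse 3 the count rose to 5456, while it fell to 1958 and 1981 without WT HFD mice 1 and 2, to 2097 and 1575 without ob/ob ND mice 2 and 3, and stayed at 3809 without ob/ob ND mouse 1. No called gene was called in the opposite direction in any of these fits. Without WT HFD mouse 3, falling members appeared in the lists of fatty acid synthesis (2), cholesterol synthesis (3) and the respiratory chain (2). A rising member (1 each) appeared there for ER chaperones and stress and for the interferon response. With only the 6 libraries of the compared groups fitted, 1588 genes were called. In that fit the rising members numbered 1 for lipolysis, 1 for fatty acid uptake and oxidation, 5 for fatty acid synthesis and 5 for branched-chain amino acid breakdown, and the falling members 1 for lipid-associated macrophages, 7 for ER chaperones and stress and 8 for cytosolic heat shock. Npr3, Dgat1, Itgax, Ccr2, Sparc and Slc2a4 kept their calls without each single mouse but lost them in that fit (adjusted p 0.0501 to 0.0557). For genes named below, the call held in each of the 6 fits that left out 1 library unless the libraries that end it are given.

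**Figure D2:**
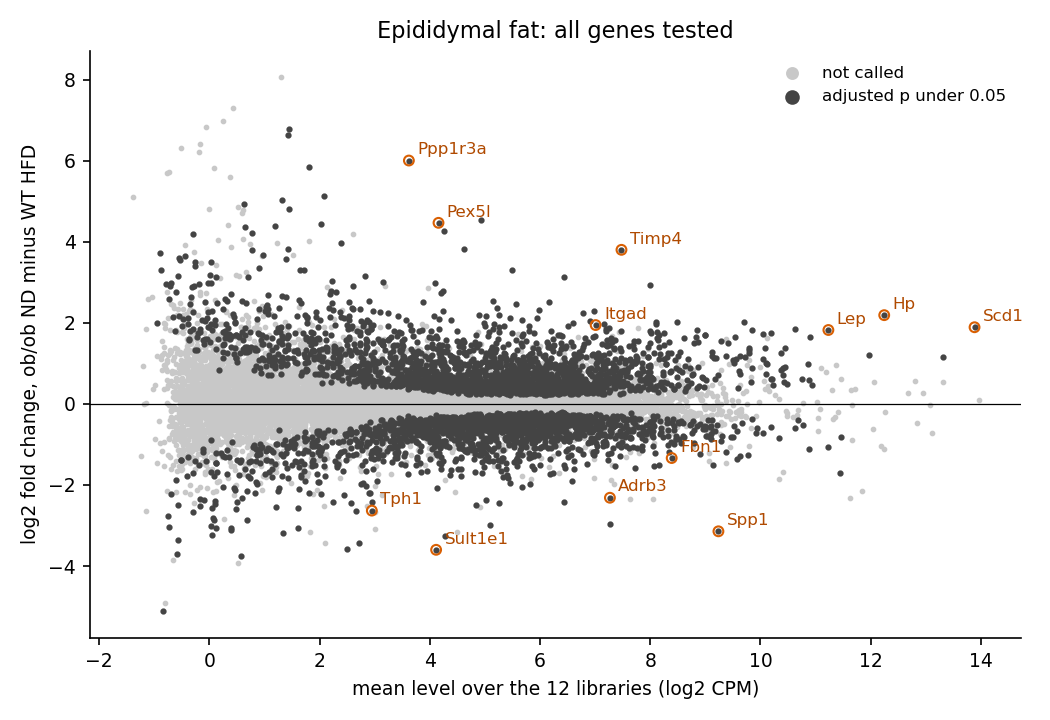
Each point is 1 of 15676 genes, with its mean level over the 12 libraries (log2 CPM, horizontal) and its log2 fold change in ob/ob ND minus WT HFD (vertical); dark points have an adjusted p under 0.05. Ppp1r3a lies highest among the labelled genes at 6.0 and Sult1e1 lowest at -3.60, while abundant genes such as Scd1 and Hp lie near 2.

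Among the genes with the highest fold changes was Ppp1r3a, which encodes a glycogen-targeting subunit of protein phosphatase 1 known from skeletal muscle. It stood at 0.536, 0.143 and 0.935 CPM in WT HFD and at 16.5, 31.2 and 57.5 CPM in ob/ob ND, a log2 fold change of 6.0 ± 0.59 (adjusted p = 0.00106). The 3 WT HFD libraries held only 22 reads of Ppp1r3a in all, so the size of this fold is uncertain. Every ob/ob ND library was above every WT HFD library, lean fat was at or below 0.146 CPM, and the ob/ob HFD libraries were at 11.5 to 15.2 CPM. Trdn, the sarcoplasmic reticulum protein triadin, showed the same separation, with 1.61, 2.86 and 3.60 CPM against 30.9, 60.4 and 65.2 CPM (4.27 ± 0.37, adjusted p = 0.000829). Pex5l, a relative of the peroxisomal import receptor, rose by 4.47 ± 0.54, and Tfr2, a transferrin receptor, by 3.83 ± 0.53. None of 5 tested skeletal muscle markers passed, and their sum was 14.2 to 45.1 CPM in WT HFD and 22.6 to 53.7 CPM in ob/ob ND. Timp4, an adipocyte-enriched metalloproteinase inhibitor, stood at 2.22, 6.23 and 27.3 CPM in WT HFD and at 75.2, 195 and 229 CPM in ob/ob ND (3.80 ± 0.74, adjusted p = 0.00712), both below the 269 to 531 CPM of lean fat. Cfi, the complement factor I protease (3.98 ± 0.80), and Cntn2 (3.30 ± 0.60) were also at this end, with 23 and 32 reads over the 3 WT HFD libraries. For 4 more genes the WT HFD reads were too few for a fold to be given. Crisp2 had 8 WT HFD reads and was at 3.31, 6.49 and 7.36 CPM in ob/ob ND. Plppr4 had 17 reads and was at 6.0, 11.3 and 9.98 CPM. Cd164l2 had 6 reads and was at 2.15, 3.73 and 3.90 CPM, and Tmem132b had 9 reads and was at 5.23, 8.63 and 10.1 CPM. An immunoglobulin segment, Ighv1-42, was also among them by rank, at 10.8, 8.98 and 4.58 CPM in ob/ob ND, but it had 0, 0.215 and 0 CPM in WT HFD and belongs to a family whose members share reads, so no fold is given.

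Sult1e1, the sulfotransferase that inactivates oestrogens, marked the other end. Its level was 2.68, 13.2 and 9.06 CPM in WT HFD and 0.384, 1.38 and 0.225 CPM in ob/ob ND (-3.60 ± 0.66, adjusted p = 0.00574). Lean fat held 52.3 to 66.6 CPM, so the gene was low in both obese groups and lowest in ob/ob ND. Gdf3, a TGF-beta family ligand made in fat by macrophages, was at 8.20, 11.5 and 19.9 CPM in WT HFD and 1.92, 2.35 and 3.08 CPM in ob/ob ND (-2.42 ± 0.40, adjusted p = 0.00414). Lgals7, a galectin, fell by 3.44 ± 0.63 on the log2 scale, Slc27a6, a fatty acid transporter, by 2.56 ± 0.41, and Scn3b, a sodium channel subunit, by 2.43 ± 0.32. Mamdc2 fell as well (-2.42 ± 0.54), from 312, 249 and 92.2 CPM to 71.3, 26.9 and 23.7 CPM, a call that ended without ob/ob ND mouse 3 (adjusted p = 0.0502; 0.00222 to 0.0502 over the 6 fits). Calls for Has1, the hyaluronan synthase (-3.19 ± 0.78; lost without WT HFD mouse 1 or ob/ob ND mouse 3, 0.00596 to 0.0661), and Tph1, the serotonin-making hydroxylase (-2.63 ± 0.66; lost without WT HFD mouse 1 or 2 or ob/ob ND mouse 2, 0.00597 to 0.0587), also rested on single mice. Reads over the 3 ob/ob ND libraries were few for Sult1e1 and Lgals7 (28 each) and for Has1 (19). Dmkn, an epithelial gene, had the least stable call of this end (-2.65 ± 0.78, adjusted p = 0.0316): it was lost without WT HFD mouse 1 or 2 or ob/ob ND mouse 1 or 3, and with the mouse number as a block (adjusted p = 0.0553).

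Among the hormones and secreted factors of the adipocyte, leptin mRNA was higher in the mice that cannot make working leptin. Of 18 tested members, 7 rose and 2 fell, with a median log2 fold change of 0.90 against 0.01 over all genes tested. Lep itself stood at 467, 839 and 2006 CPM in WT HFD and at 2752, 3966 and 4991 CPM in ob/ob ND (1.82 ± 0.47, adjusted p = 0.0197), with lean fat at 1086 to 2153 CPM. The groups did not overlap, but WT HFD mouse 3 lay close to the lowest ob/ob ND mouse, and the call was lost without WT HFD mouse 1 or 2 or ob/ob ND mouse 3 (adjusted p 0.00152 to 0.0758). A nonsense mutation leaves a transcript to be counted, so the level of Lep mRNA in ob/ob fat says nothing of the hormone. Lcn2, the iron-binding lipocalin 2, rose from 24.6, 19.6 and 14.6 CPM to 76.5, 93.0 and 84.7 CPM (2.11 ± 0.26, adjusted p = 0.00162), and lean fat was lowest at 5.86 to 10.5 CPM. Hp, haptoglobin, which binds free haemoglobin, rose from 1113, 1270.1 and 2377 CPM to 6042, 7511 and 8142 CPM (2.19 ± 0.27, adjusted p = 0.00162), above the 3312 to 3651 CPM of lean fat; it is no list member and was chosen after its values were seen.

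Adipoq, adiponectin, was at 284, 568 and 1115 CPM in WT HFD and 890, 1434 and 1082 CPM in ob/ob ND, which overlap (0.79 ± 0.39, adjusted p = 0.158; called only without WT HFD mouse 3, 0.00729). Other secreted factors rose with calls that depended on single mice. Nrg4, a neuregulin, rose by 1.70 ± 0.43 (lost without WT HFD mouse 1 or 2 or ob/ob ND mouse 3) and Angptl4, an inhibitor of lipoprotein lipase, by 0.82 ± 0.19 (lost without WT HFD mouse 2, 0.0509). Retn, resistin (1.82 ± 0.54), and Cfd, adipsin (1.85 ± 0.54), lost their calls without any 1 of 4 mice, WT HFD mice 1 and 2 and ob/ob ND mice 2 and 3. Without single mice the list's count of rising members ran from 1 (without WT HFD mouse 2) to 13 (without WT HFD mouse 3), with 2 also without WT HFD mouse 1 or ob/ob ND mouse 3 and 4 without ob/ob ND mouse 2. The adipocyte marker sum rose along with these genes, and its part in the result was not tested.

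The receptor through which catecholamines drive lipolysis in white fat fell further in ob/ob ND than in WT HFD. Adrb3, the beta-3 adrenergic receptor, stood at 9.12, 25.4 and 30.1 CPM in WT HFD and at 3.77, 6.28 and 2.85 CPM in ob/ob ND (-2.32 ± 0.43, adjusted p = 0.00602), against 502 to 696 CPM in lean fat. All obese libraries were far below the lean ones, and the obese groups did not overlap. Of 20 tested members of the lipolysis list 11 rose, Adrb3 alone fell and 8 did not pass (median 0.79). Prkar2b, the main regulatory subunit of protein kinase A in adipocytes, rose from 156, 229 and 357 CPM to 558, 713 and 912 CPM (1.56 ± 0.30, adjusted p = 0.00643). Npr3, the natriuretic peptide clearance receptor, rose by 1.71 ± 0.38, and for both genes the ob/ob ND range overlapped the lean one. G0s2, which inhibits the lipase Pnpla2, rose by 1.08 ± 0.25 (lost without WT HFD mouse 2 or ob/ob ND mouse 3, 0.00193 to 0.0602). Lipe, hormone-sensitive lipase, was at 145, 224 and 508 CPM in WT HFD and 553, 771 and 877 CPM in ob/ob ND (1.33 ± 0.37; lost without WT HFD mouse 1 or 2 or ob/ob ND mouse 2 or 3, 0.000878 to 0.0989). Rising members numbered 3 without WT HFD mouse 1 or 2, 5 without ob/ob ND mouse 2 and 2 without ob/ob ND mouse 3.

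Fatty acid synthesis genes were higher in ob/ob ND fat: 13 of 20 tested members rose, none fell, and the median was 0.73. Scd1, the desaturase that makes oleate, stood at 1959, 2872 and 5692 CPM in WT HFD and at 8725, 13286 and 16992 CPM in ob/ob ND (1.89 ± 0.40, adjusted p = 0.00901), with lean fat at 21242 to 27514 CPM. Its relative Scd2 was at 85.7, 96.6 and 216 CPM against 336, 420.1 and 600 CPM (1.77 ± 0.36, adjusted p = 0.00785), and here ob/ob ND exceeded the lean 95.5 to 125 CPM as well. Acaca, acetyl-CoA carboxylase, rose by 1.42 ± 0.31 and Acss2, which makes acetyl-CoA from acetate, by 0.68 ± 0.13. Fasn, fatty acid synthase, at 137, 228 and 809.8 CPM in WT HFD and 785, 1420 and 1444 CPM in ob/ob ND, overlapped and did not pass (1.63 ± 0.55, adjusted p = 0.0512; called with the mouse number as a block, 0.0398, and without WT HFD mouse 3 or ob/ob ND mouse 1). WT HFD mouse 3 was the highest of its group for each of these 5 genes. Without single mice the count of rising members was 4 (WT HFD mouse 1 or 2, ob/ob ND mouse 3), 5 (ob/ob ND mouse 2) or 13 (WT HFD mouse 3, ob/ob ND mouse 1).

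In triglyceride assembly 5 of 20 members rose and 2 fell (median 0.64). Dgat1, which adds the last acyl chain, rose from 37.5, 53.2 and 77.7 CPM to 92.8, 122 and 167 CPM (1.18 ± 0.26, adjusted p = 0.0099). Dgat2 (1.74 ± 0.42) and Fitm2, a droplet-budding protein (1.37 ± 0.31), rose with calls lost without WT HFD mouse 2 or ob/ob ND mouse 3 (up to 0.0604 and 0.0532). The falling pair are coat proteins of small droplets: Plin3 went from 130.0, 121 and 104 CPM to 82.7, 81.2 and 77.2 CPM (-0.56 ± 0.09, adjusted p = 0.0037), towards the lean 68.5 to 68.8 CPM. Plin2, at 2916, 2731 and 2338 CPM in WT HFD and 2127, 1548 and 1882 CPM in ob/ob ND, had a less stable call (-0.52 ± 0.17, adjusted p = 0.042; 0.0613 with the mouse number as a block; lost without WT HFD mouse 1 or 2 or ob/ob ND mouse 2 or 3, 0.0151 to 0.164). Rising members of this list numbered 1 without WT HFD mouse 2 or ob/ob ND mouse 3 and 13 without WT HFD mouse 3.

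Cholesterol synthesis differed from the adipocyte lists in where lean fat lay. Of 22 tested members 10 rose and none fell between the obese groups (median 0.52), and against lean fat 16 were higher and 1 lower in ob/ob ND, and 10 higher and 6 lower in WT HFD. Hsd17b7, a sterol ketone reductase of the pathway, was at 11, 12.6 and 11.2 CPM in WT HFD and 20.5, 18.9 and 26.8 CPM in ob/ob ND (0.92 ± 0.16, adjusted p = 0.00458). The lean libraries (8.79 to 12.4 CPM) overlapped WT HFD and lay below every ob/ob ND library. Lss, lanosterol synthase, rose from 24.4, 22.8 and 31.4 CPM to 41.4, 45.2 and 68.2 CPM (0.98 ± 0.19, adjusted p = 0.00709), again with lean fat (21.5 to 27.8 CPM) beside WT HFD. Idi1, an isomerase of the early pathway, rose by 0.55 ± 0.12, a call lost without ob/ob ND mouse 3 (0.0242 to 0.0513). The list's rising members numbered 3 without that mouse and 4 without WT HFD mouse 1 or 2.

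The breakdown of branched-chain amino acids, a main use of these amino acids in fat cells, also differed: 14 of 20 tested members rose and none fell (median 0.65). Dbt, the core of the branched-chain dehydrogenase complex, stood at 20.6, 23.9 and 32.2 CPM in WT HFD and 42.7, 54.3 and 65.5 CPM in ob/ob ND (1.08 ± 0.21, adjusted p = 0.00702), below the lean 78.5 to 105 CPM. Ivd, which oxidises the leucine product, rose by 0.98 ± 0.21, Dld, a subunit shared with other dehydrogenases, by 0.67 ± 0.11 and Auh by 0.47 ± 0.10. All 20 members were below lean fat in WT HFD and 19 in ob/ob ND. Without single mice the count of rising members was 4 to 6 (WT HFD mouse 1 or 2, ob/ob ND mouse 2 or 3) or 16 to 17 (WT HFD mouse 3, ob/ob ND mouse 1).

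Of 22 tested genes of fatty acid uptake and oxidation 11 rose and 1 fell (median 0.47). Hadh, which performs the third step of the cycle, went from 141, 172 and 196 CPM to 259.9, 301 and 320.4 CPM (0.79 ± 0.15, adjusted p = 0.00689). Acaa2 (0.60 ± 0.13) and Etfdh (0.60 ± 0.14) rose with calls lost without ob/ob ND mouse 3 (0.0513 and 0.0607). The falling gene was Cpt1a, the gate of mitochondrial import in liver and many other cells, at 365, 339 and 316 CPM in WT HFD and 284, 226 and 233 CPM in ob/ob ND (-0.46 ± 0.11, adjusted p = 0.0128; lost without ob/ob ND mouse 2 or 3, 0.00525 to 0.0598). Respiratory chain and ATP synthase genes showed smaller shifts, with 7 of 27 higher, none lower and a median of 0.17. Cycs, cytochrome c, rose by 0.46 ± 0.12 (lost without WT HFD mouse 1 or 2 or ob/ob ND mouse 3, 0.0133 to 0.102). Cox5b, a subunit of complex IV, rose by 0.31 ± 0.09 (lost in all fits but that without ob/ob ND mouse 1, 0.0395 to 0.116). The list had 0 called members without WT HFD mouse 1 or 2 or ob/ob ND mouse 3, 1 without ob/ob ND mouse 2, 1 with no filter on low counts and 2 with the mouse number as a block. For fatty acid uptake and oxidation the rising members numbered 1 to 4 without WT HFD mouse 1 or 2 or ob/ob ND mouse 2 or 3.

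Thermogenic genes gave no common direction: of 16 tested, 2 rose and 1 fell (median 0.10), and Ucp1, the uncoupling protein of brown fat, was too low to be tested. Otop1, a proton channel, was at 7.36, 7.87 and 9.42 CPM in WT HFD and 17, 15.1 and 22.9 CPM in ob/ob ND (1.16 ± 0.23, adjusted p = 0.00709), and at most 0.559 CPM in lean fat. Kcnk3, a potassium channel, rose by 1.33 ± 0.33 (lost without WT HFD mouse 2 or ob/ob ND mouse 3, 0.00135 to 0.0698). Dio2, the thyroid hormone activating deiodinase, was at 15.1, 10.1 and 2.01 CPM against 2.92, 1.31 and 1.58 CPM (-2.23 ± 0.69, adjusted p = 0.0383), groups that overlap, and its call ended with the mouse number as a block (0.0583) and without WT HFD mouse 1 or 2 or ob/ob ND mouse 2 or 3 (0.00411 to 0.144).

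Of the glucose transporters, Slc2a4 rose and Slc2a1 fell in ob/ob ND fat. Of 24 tested members of the insulin and glucose list, 10 rose and 2 fell (median 0.49). Slc2a4, the insulin-responsive transporter GLUT4, was at 11, 21.3 and 36.2 CPM in WT HFD and 46.9, 74.4 and 75.7 CPM in ob/ob ND (1.52 ± 0.34, adjusted p = 0.0114), against 196 to 226 CPM in lean fat. Slc2a1, the basal transporter GLUT1, was at 132, 69.3 and 37.8 CPM against 33.8, 21.8 and 20.0 CPM (-1.66 ± 0.40, adjusted p = 0.0149), with lean fat lower still at 9.81 to 12.4 CPM; this call was lost without WT HFD mouse 1 or ob/ob ND mouse 2 or 3 (0.00174 to 0.066). Gys2, the glycogen synthase of liver and fat, rose from 8.20, 15 and 16 CPM to 31.8, 32.2 and 42.3 CPM (1.43 ± 0.26, adjusted p = 0.00593), above the lean 6.08 to 10.2 CPM. Pfkl, a phosphofructokinase, rose by 1.17 ± 0.22 and Pik3r1, the regulatory subunit of phosphoinositide 3-kinase, by 1.01 ± 0.19. Every ob/ob ND library was above every lean and WT HFD library for Gys2, as for Ppp1r3a. Gys1, the glycogen synthase of muscle and other tissues, overlapped between the obese groups (0.74 ± 0.25, adjusted p = 0.0495; 0.0527 with the mouse number as a block; lost without WT HFD mouse 1 or 2 or ob/ob ND mouse 2 or 3, 0.00824 to 0.196). The count of rising members was 7 and 5 without WT HFD mice 1 and 2 and 6 and 5 without ob/ob ND mice 2 and 3.

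**Figure D3:**
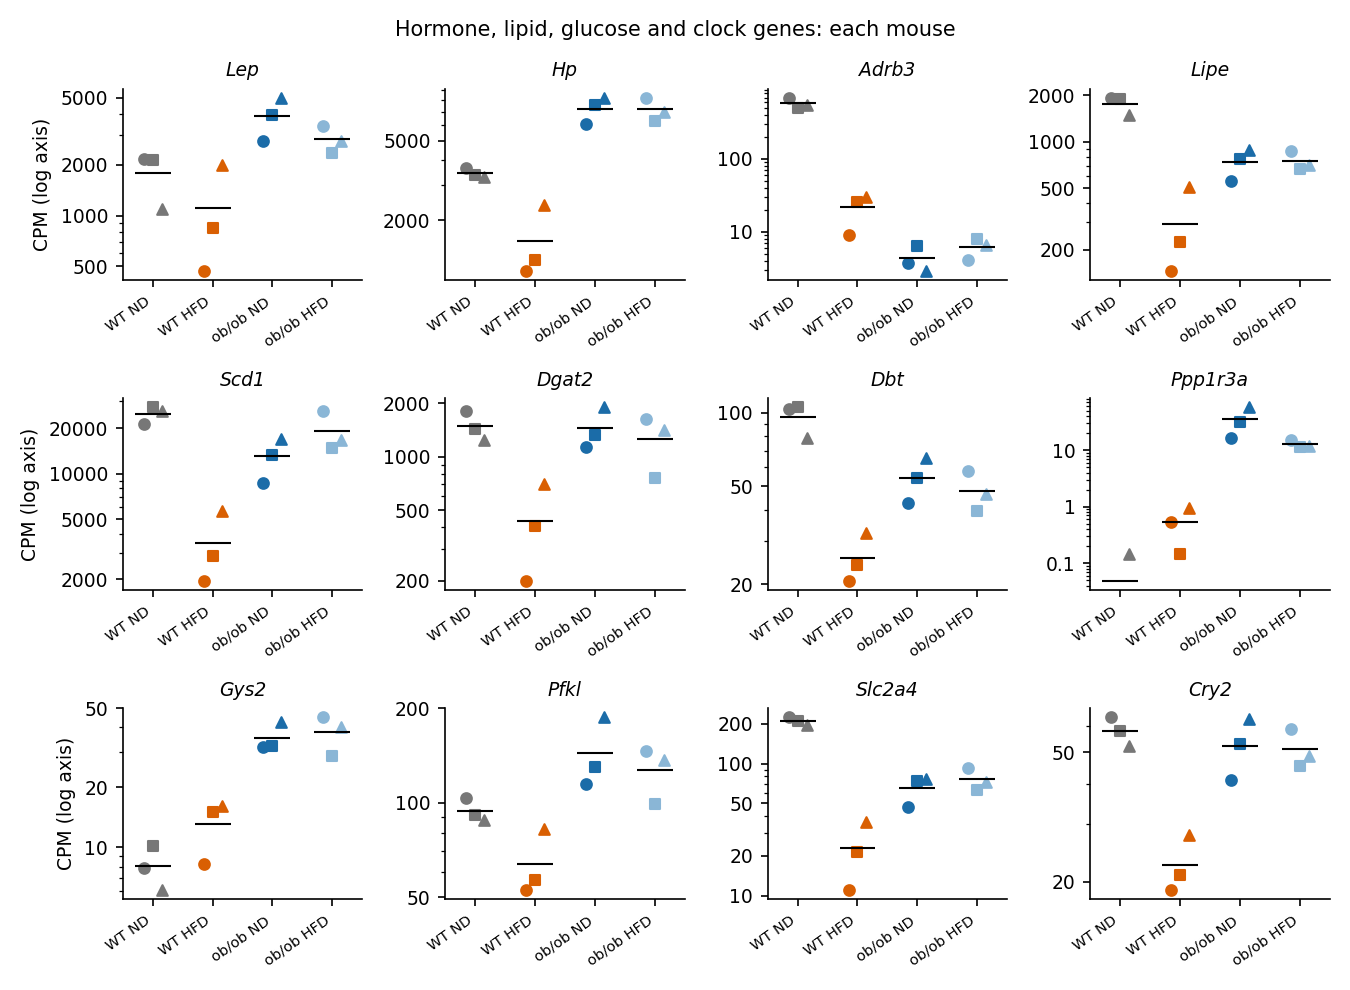
CPM of 12 genes (log axes, which differ between panels) in each mouse, with colour for group, shape for mouse number and a bar at the group mean; Ppp1r3a was 0 in 2 lean mice, which the log axis cannot show. Adrb3 is lower in ob/ob ND than in WT HFD and the other 11 genes are higher, and in those 11 WT HFD mouse 3 is the highest of its group.

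Of the leptin receptor signalling genes 1 of 11 fell and none rose (median -0.07), against 10.8% and 13.5% of all genes tested. Socs2, a suppressor of cytokine signalling, fell by 0.57 ± 0.16 on the log2 scale (adjusted p = 0.0268; lost without WT HFD mouse 2 or ob/ob ND mouse 2 or 3). Lepr itself did not pass, at 0.536, 0.787 and 3.45 CPM in WT HFD and 4.31, 3.38 and 3.83 CPM in ob/ob ND (1.26 ± 0.52, adjusted p = 0.098), and only the fit without WT HFD mouse 3 called it (0.000805). Of 16 glucocorticoid receptor genes and targets 3 rose and 1 fell (median 0.23), against 13.5% and 10.8% of all genes tested. Fkbp5, a chaperone induced by glucocorticoids, was at 85.4, 78.4 and 99.8 CPM in WT HFD and 138, 193 and 184 CPM in ob/ob ND (0.97 ± 0.15, adjusted p = 0.00339), and the ob/ob HFD libraries were higher still at 199.5 to 248 CPM. Dusp1, a phosphatase that ends MAP kinase signals, fell from 204, 183 and 129 CPM to 78.3, 67.2 and 73.9 CPM (-1.24 ± 0.27, adjusted p = 0.00997). Hsd11b1, which regenerates active glucocorticoid, rose by 1.21 ± 0.34 (lost without WT HFD mouse 2 or 3 or ob/ob ND mouse 2 or 3, 0.0102 to 0.101), and the third member that rose, the target Klf9, lost its call in each of the 6 fits (0.37 ± 0.11; 0.0585 to 0.15) and with the mouse number as a block (0.0534).

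Clock genes were higher in ob/ob ND fat, with 10 of 18 rising and none falling (median 0.45). Cry2, a repressor of the clock, was at 18.8, 21 and 27.8 CPM in WT HFD and 41, 52.8 and 63 CPM in ob/ob ND (1.21 ± 0.18, adjusted p = 0.00283), overlapping the lean 52.1 to 64.2 CPM. Its relative Cry1 rose by 0.90 ± 0.18, Rora, a nuclear receptor that activates Bmal1, by 0.78 ± 0.12, and Hlf, a clock output factor, by 2.33 ± 0.48. The hour of collection is not given in the labels. Rising members numbered 6 and 4 without WT HFD mice 1 and 2 and 5 without ob/ob ND mouse 3. Falling members numbered 2 without WT HFD mouse 3, and 1 without ob/ob ND mouse 1, with no filter on low counts and with DESeq2.

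The chaperones of the endoplasmic reticulum (ER) were lower in ob/ob ND than in WT HFD fat. Of 22 tested genes of the unfolded protein and integrated stress responses 10 fell and none rose (median -0.31), and all 10 encode chaperones or folding factors of the ER. Hspa5, the master chaperone BiP, stood at 1251, 1177 and 852 CPM in WT HFD and at 678, 582 and 612 CPM in ob/ob ND (-0.81 ± 0.15, adjusted p = 0.00593). Every WT HFD library was above every ob/ob ND library, and lean fat (536 to 574 CPM) lay just below ob/ob ND. Sdf2l1 went from 80.5, 76.4 and 47.9 CPM to 35.8, 26.7 and 23.4 CPM (-1.25 ± 0.20, adjusted p = 0.00362), Hyou1 fell by 1.12 ± 0.18, Creld2 by 1.11 ± 0.16 and Pdia4 by 0.86 ± 0.12. Against lean fat 14 members of the list were higher and 4 lower in WT HFD, and 7 were higher and 6 lower in ob/ob ND. Some genes of the integrated stress response, chosen after their values were seen, did not pass: the log2 fold changes were -0.06 for Atf4, -0.04 for Ddit3, 0.01 for Trib3 and -0.01 for Asns. The list's other members of that response were not called either, and their fold changes are not given here. The number of falling members was 7 without WT HFD mouse 1 or 2 or ob/ob ND mouse 2 or 3, and 13 without WT HFD mouse 3.

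These chaperone genes are classic targets of factors that bind the ER stress element, spelled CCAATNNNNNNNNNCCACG, or its CCACG end alone. The RefSeq promoter table (GRCm38.p6) holds 4 of the 5 named genes, and 3 are printed because they fell together and carry these letters in the 250 bases before their start; Hyou1 has no entry. Capitals mark the full element in Hspa5 (chr2:34771840-34772089, plus strand) and, as its reverse complement, in Creld2 (chr15:88819396-88819645, plus strand). In Sdf2l1 (chr16:17132384-17132633, minus strand) they mark 3 copies of that short end, read as CGTGG on the gene's strand.
Hspa5: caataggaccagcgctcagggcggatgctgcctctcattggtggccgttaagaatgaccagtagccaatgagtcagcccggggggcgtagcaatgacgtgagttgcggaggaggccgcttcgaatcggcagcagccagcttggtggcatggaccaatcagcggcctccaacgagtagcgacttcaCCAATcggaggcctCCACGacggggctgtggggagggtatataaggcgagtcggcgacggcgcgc
Creld2: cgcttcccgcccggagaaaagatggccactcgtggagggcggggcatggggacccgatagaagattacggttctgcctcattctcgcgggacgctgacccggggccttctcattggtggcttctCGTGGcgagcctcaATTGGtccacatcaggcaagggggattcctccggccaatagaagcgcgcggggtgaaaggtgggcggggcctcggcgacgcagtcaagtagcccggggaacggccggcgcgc
Sdf2l1: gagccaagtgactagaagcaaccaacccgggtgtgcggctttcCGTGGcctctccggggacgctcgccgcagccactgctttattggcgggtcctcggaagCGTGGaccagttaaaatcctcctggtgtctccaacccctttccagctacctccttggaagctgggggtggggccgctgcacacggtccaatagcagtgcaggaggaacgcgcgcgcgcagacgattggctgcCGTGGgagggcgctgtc
Searched on both strands, the full element occurs in 37 of 32851 promoter windows of this length (0.11%) and the short end, which each full element also contains, in 9311 (28.34%). In Pdia4 neither spelling was in the window. A match describes the sequence and is no measure of binding.

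Cytosolic heat shock genes also fell, 9 of 18 against 1 rise (median -0.28). Hsph1, a large chaperone of the HSP110 family, was at 105, 102 and 81.3 CPM in WT HFD and 47.4, 38.2 and 39.9 CPM in ob/ob ND (-1.20 ± 0.14, adjusted p = 0.00141), and lean fat (33.4 to 45.2 CPM) sat with ob/ob ND. Hsf1, the heat shock transcription factor, was at 29.5, 23.8 and 23.6 CPM against 15.6, 16.3 and 16.4 CPM (-0.67 ± 0.11, adjusted p = 0.0042), and here WT HFD overlapped lean fat (26.7 to 32.8 CPM). Hspa1a, an inducible HSP70 with a near-identical copy in Hspa1b that can split its reads, fell by 1.74 ± 0.28, and Fkbp4, a co-chaperone of steroid receptors, by 0.49 ± 0.07. For both genes, as for Hsf1, the lean range overlapped that of WT HFD. The small heat shock protein Hspb1 rose instead, from 36.5, 25.3 and 30.9 CPM to 46.4, 78.8 and 75.2 CPM (1.11 ± 0.19, adjusted p = 0.00484). The count of falling members stayed at 8 or 9 whichever mouse was left out, except for 13 without WT HFD mouse 3. Among 11 immediate early genes, which respond to handling of tissue, only Zfp36 was called (-0.69 ± 0.17; lost without WT HFD mouse 1 or ob/ob ND mouse 2), and the list's median was -0.73. Their sum was 1309, 978 and 854 CPM in WT HFD and 644, 468 and 456 CPM in ob/ob ND, which do not overlap, and 618 to 1433 CPM in lean fat. The falling members numbered 6 without WT HFD mouse 3, 4 without ob/ob ND mouse 1, 0 without WT HFD mouse 1 or ob/ob ND mouse 2, 4 with no filter on low counts, 5 with DESeq2 and 2 with the mouse number as a block. The part of handling in these results was not tested.

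Macrophage genes were high in both obese groups and higher in WT HFD. Of 12 pan-macrophage markers 7 fell and none rose in ob/ob ND relative to WT HFD (median -0.63), while all 12 were above lean fat in each obese group. Adgre1, the F4/80 antigen, was at 841, 852 and 832 CPM in WT HFD and 629, 491 and 510.4 CPM in ob/ob ND (-0.63 ± 0.12, adjusted p = 0.00618), with lean fat at 62.6 to 68.7 CPM. The 3 WT HFD libraries lay within 832 to 852 CPM for this gene, whereas their summed marker levels ran from 9248 to 17550 CPM. Cd68 (-0.86 ± 0.20; lost without ob/ob ND mouse 2 or 3, up to 0.0595) and Cd84 (-1.01 ± 0.23; lost without ob/ob ND mouse 3, 0.0512) fell too, whereas Csf1r, the growth factor receptor of all macrophages, was at 666, 694 and 729 CPM against 759.9, 614 and 549 CPM (-0.12 ± 0.13, adjusted p = 0.519). The falling markers numbered 3 and 4 without WT HFD mice 1 and 2 and 3 and 1 without ob/ob ND mice 2 and 3.

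The lipid-associated macrophage programme, the set of lipid-handling genes that macrophages around dying adipocytes switch on, had 9 of 20 members lower and 1 higher in ob/ob ND (median -0.71). Trem2, the receptor that drives it, was at 772, 636 and 559 CPM in WT HFD and 464, 349.9 and 325 CPM in ob/ob ND (-0.79 ± 0.16, adjusted p = 0.00865), against 9.52 to 10.9 CPM in lean fat. The obese groups did not overlap, but both stood far above lean fat. Itgax, the integrin CD11c, fell by 1.18 ± 0.27, and Tyrobp, the Trem2 adaptor, by 0.78 ± 0.19 (lost without WT HFD mouse 1 or 2 or ob/ob ND mouse 2 or 3, up to 0.0717). Spp1, osteopontin, varied most between mice, with 3660.2, 1119.6 and 187 CPM in WT HFD and 300.0, 125 and 137 CPM in ob/ob ND; its groups overlap, and its call (-3.14 ± 0.98, adjusted p = 0.0389) was lost without WT HFD mouse 1 or 2 or ob/ob ND mouse 2 or 3 (0.0061 to 0.179) and with the mouse number as a block (0.0649). The member that rose was Acp5, the tartrate-resistant acid phosphatase, at 90.9, 113 and 194 CPM against 241, 265 and 243 CPM (0.91 ± 0.23; lost without the same 4 mice, 0.000671 to 0.07), with lean fat higher at 328 to 411 CPM. The list's falling members numbered 2 without WT HFD mouse 1 or 2 or ob/ob ND mouse 2 or 3, and 15 without WT HFD mouse 3 or ob/ob ND mouse 1.

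Some macrophage-lineage genes ran against this direction. Itgad, the integrin CD11d, was at 54.5, 49.3 and 62.6 CPM in WT HFD and 173, 163 and 305 CPM in ob/ob ND (1.94 ± 0.30, adjusted p = 0.00316), was at most 0.977 CPM in lean fat and stood at 221 to 282 CPM in ob/ob HFD; it was chosen after its values were seen. Chil3, the chitinase-like protein Ym1 of alternatively activated macrophages, was at 1.92, 1.65 and 2.09 CPM in WT HFD and 6.23, 8.91 and 9.53 CPM in ob/ob ND (2.12 ± 0.26, adjusted p = 0.0016). Of 19 tested genes of resident and alternatively activated macrophages 4 fell and Chil3 alone rose (median -0.29). Mrc1, the mannose receptor, fell by 0.86 ± 0.22 (lost without WT HFD mouse 1 or 2 or ob/ob ND mouse 2 or 3) and Ear2 by 1.05 ± 0.27 (lost without ob/ob ND mouse 2 or 3). Folr2, a folate receptor of resident macrophages, fell by 0.63 ± 0.18 (lost without WT HFD mouse 2 or ob/ob ND mouse 2 or 3, and with the mouse number as a block, 0.0536). The falling members numbered 0 without ob/ob ND mouse 2 or 3, 1 without WT HFD mouse 2 and 7 without WT HFD mouse 3. S100a8, a neutrophil and myeloid alarmin subunit, rose from 7.82, 8.09 and 7.91 CPM to 28.8, 42.3 and 30.2 CPM (2.09 ± 0.29, adjusted p = 0.00214), while its partner S100a9 was at 2.91, 2.72 and 1.29 CPM against 0.615, 0.829 and 1.05 CPM and did not pass (adjusted p = 0.194). Of the 5 tested neutrophil markers S100a8 rose and Csf3r, a growth factor receptor, fell (-0.95 ± 0.25; lost without WT HFD mouse 1 or 2 or ob/ob ND mouse 3).

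Mast cell markers were lower in ob/ob ND, with 5 of 9 falling, none rising and a median of -1.26. Their sum was 971, 869 and 651 CPM in WT HFD, 459, 297 and 193 CPM in ob/ob ND and 51.7 to 162 CPM in lean fat. Kit, the stem cell factor receptor that mast cells need, was at 43.6, 32.1 and 39.1 CPM against 23.1, 21 and 13.6 CPM (-0.99 ± 0.20, adjusted p = 0.00742). Mcpt4, a mast cell protease, fell by 1.62 ± 0.41 and Fcer1a, a subunit of the IgE receptor, by 1.76 ± 0.50, with calls lost without any 1 of WT HFD mice 1 and 2 and ob/ob ND mice 2 and 3 (up to 0.0666 and 0.105). Cpa3, the mast cell carboxypeptidase, fell by 1.5 ± 0.44 (lost in the same 4 fits and with the mouse number as a block, 0.0562). Only Kit was called in each of the 6 fits, so the count was 1 without any of those 4 mice and 3 with the block.

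Cytokine and complement genes went both ways. Of 22 cytokine and chemokine genes 5 were called, near the 24.3% of all genes tested, and 4 of these fell and 1 rose (list median -0.50). Ccr2, the receptor that brings monocytes into tissue, was at 68.6, 66.7 and 54.6 CPM in WT HFD and 42, 42.9 and 26.3 CPM in ob/ob ND (-0.77 ± 0.17, adjusted p = 0.0112), and lean fat (64.7 to 69.1 CPM) sat with WT HFD. Nlrp3, an inflammasome sensor (-0.81 ± 0.22; lost without WT HFD mouse 1 or 2 or ob/ob ND mouse 2), and the chemokine Ccl9 (-0.91 ± 0.27; lost without WT HFD mouse 1 or 2 or ob/ob ND mouse 2 or 3) fell. Cxcl10, an interferon-induced chemokine, rose by 1.13 ± 0.30 (lost without WT HFD mouse 2 or ob/ob ND mouse 2). Falling members numbered 1 without WT HFD mouse 1 or 2 and 2 without ob/ob ND mouse 2 or 3.

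Interferon-response genes had 9 of 24 members lower and none higher (median -0.42). Against lean fat 12 were lower and none higher in ob/ob ND, and 7 were lower and 4 higher in WT HFD. Oas1a, an antiviral sensor of double-stranded RNA, was at 14, 13.7 and 19.6 CPM in WT HFD and 6.84, 7.25 and 5.55 CPM in ob/ob ND (-1.27 ± 0.18, adjusted p = 0.00238), with lean fat at 5.03 to 6.37 CPM. Oas2 was at 7.05, 8.45 and 13.7 CPM against 1.08, 3.45 and 1.80 CPM (-2.19 ± 0.45, adjusted p = 0.00852), and Irf9, a factor of the interferon signal, fell by 0.59 ± 0.12. For Oas2 and for Ifitm3, a membrane protein that blocks viral entry (-0.55 ± 0.12), the lean range overlapped that of WT HFD or lay above it. The list's count was 4 without WT HFD mouse 2 or ob/ob ND mouse 3 and 6 without ob/ob ND mouse 1. In the complement list 5 of 17 members fell and 3 rose (median -0.37). C5ar1, the C5a receptor of myeloid cells, was at 253, 239.7 and 221 CPM against 119, 85.6 and 98.2 CPM (-1.24 ± 0.16, adjusted p = 0.00199). Cfp, properdin, fell by 0.83 ± 0.16, C3ar1 by 0.61 ± 0.14 (lost without ob/ob ND mouse 2 or 3), and Cfb, factor B, rose by 0.82 ± 0.15. Falling members numbered 3 without WT HFD mouse 1 or 2 and 2 without ob/ob ND mouse 3, and rising members 1 in each of those fits and without ob/ob ND mouse 2.

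Lymphocyte and antigen-presentation genes separated the groups less. Among 13 tested T and NK cell genes 2 fell and none rose (median 0.22), against 10.8% and 13.5% of all genes tested. Il7r, the interleukin 7 receptor, went from 159, 172 and 159.8 CPM to 109, 82.7 and 66.5 CPM (-0.92 ± 0.18, adjusted p = 0.00742). It made up most of the list's summed level in WT HFD (190, 208 and 181 CPM). Gzmb, granzyme B, went from 11.6, 9.45 and 2.66 CPM to 1.92, 0.691 and 0.225 CPM (-3.06 ± 0.69, adjusted p = 0.0116). Cd3e, a CD3 chain of the T cell receptor complex, was at 1.23, 2.0 and 2.01 CPM against 3.31, 3.87 and 1.65 CPM and did not pass (adjusted p = 0.163). Of 12 MHC class II presentation genes only Cd80, a costimulator, was called (-1.92 ± 0.40, adjusted p = 0.00851), and the list's median was -0.12. Of 10 dendritic cell genes 2 fell, against 10.8% of all genes tested (median -0.35). They were Sirpa (-0.79 ± 0.13) and Cd209a (-2.25 ± 0.50, lost without ob/ob ND mouse 3, 0.0512). No B or plasma cell gene of 10 was called.

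**Figure D4:**
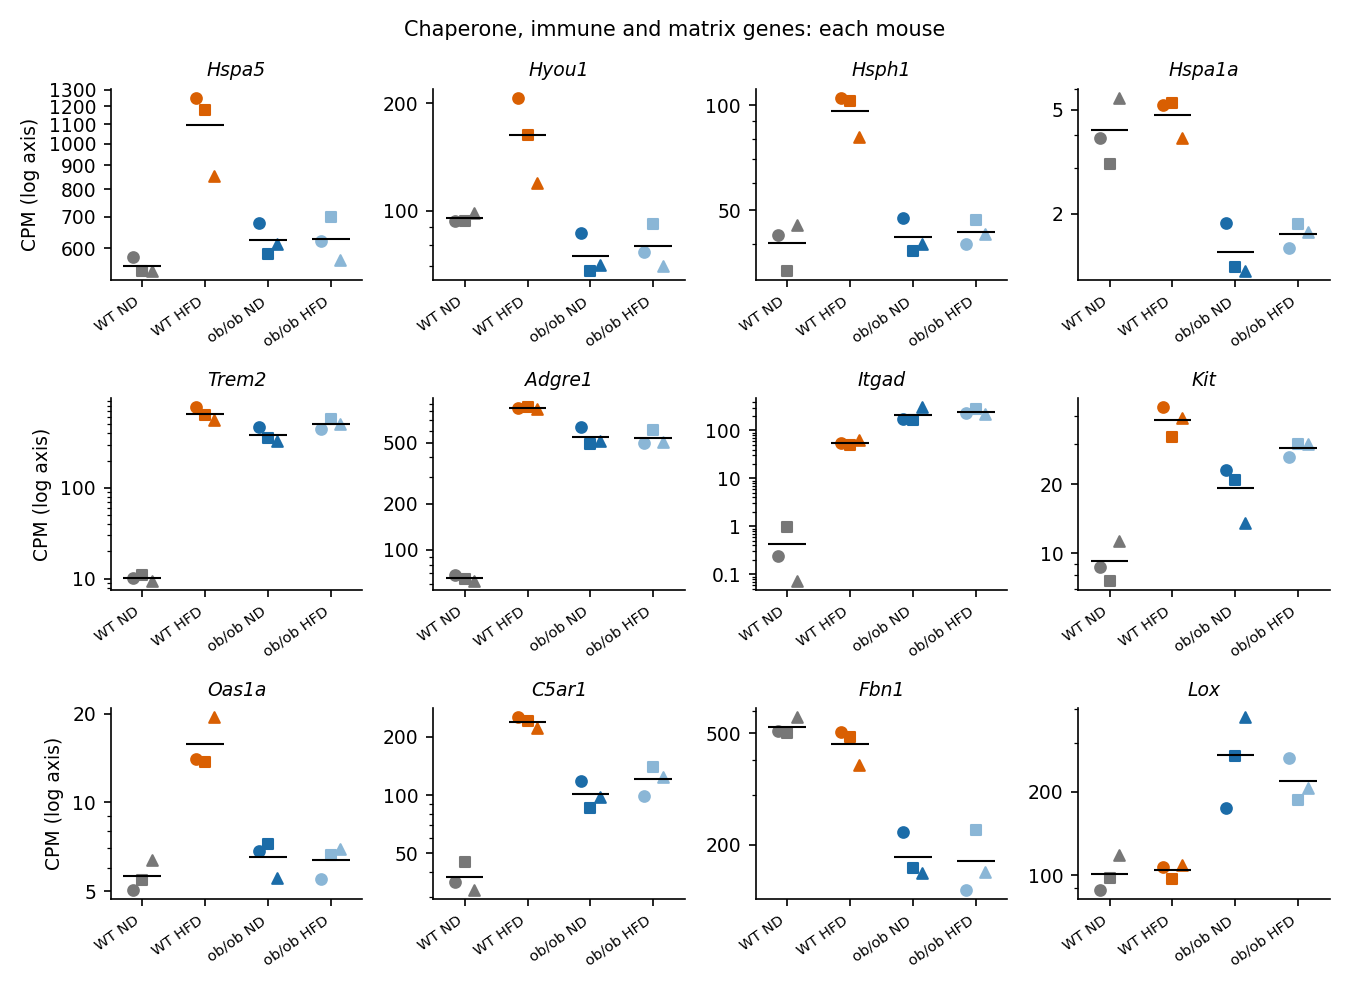
CPM of 12 genes (log axes, which differ between panels) in each mouse, with colour for group, shape for mouse number and a bar at the group mean. Hspa5, Hyou1, Hsph1, Hspa1a, Trem2, Adgre1, Kit, Oas1a, C5ar1 and Fbn1 are lower in every ob/ob ND mouse than in any WT HFD mouse, and Itgad and Lox are higher.

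Matrix genes changed in both directions. Of 24 matrix remodelling genes 10 fell and 2 rose (median -0.60). Fbn1, fibrillin 1 of elastic microfibrils, was at 506, 483 and 384 CPM in WT HFD and 221, 165 and 158 CPM in ob/ob ND (-1.34 ± 0.20, adjusted p = 0.00265), and WT HFD overlapped the lean 502 to 572 CPM. Lox, lysyl oxidase, which cross-links collagen, went from 107, 96.7 and 109 CPM to 175, 269.9 and 374 CPM (1.39 ± 0.24, adjusted p = 0.00459), and WT HFD again sat with lean fat (88.1 to 118 CPM). Mmp3, stromelysin 1, was at 135, 88.5 and 62.4 CPM against 29.8, 32.9 and 18.8 CPM (-1.81 ± 0.35, adjusted p = 0.00683), above the lean 3.83 to 9.74 CPM in both. Sparc, a collagen-binding glycoprotein made by adipocytes, rose by 1.22 ± 0.25. Calls for Fn1, fibronectin (-1.35 ± 0.34; lost without WT HFD mouse 1 or 2 or ob/ob ND mouse 2 or 3), and Timp1, a metalloproteinase inhibitor (-1.97 ± 0.60, adjusted p = 0.0369; lost in all fits but that without WT HFD mouse 3, up to 0.177, and with the mouse number as a block, 0.0691), rested on single mice. The falling members numbered 5 and 4 without WT HFD mice 1 and 2, 5 and 4 without ob/ob ND mice 2 and 3 and 7 with the block. Rising members numbered 4 without WT HFD mouse 3 and 5 without ob/ob ND mouse 1.

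Collagens had 3 of 19 members higher and 2 lower (median 0.10), near the 13.5% and 10.8% of all genes tested. Rising members numbered 1 without WT HFD mouse 2 or ob/ob ND mouse 2 or 3 and with the mouse number as a block. Falling members numbered 0 without ob/ob ND mouse 3, 4 without ob/ob ND mouse 1, and 1 without WT HFD mouse 1 or ob/ob ND mouse 2 and with the block. Col4a2, a chain of the basement membrane that wraps each adipocyte, rose from 1021, 833 and 1174 CPM to 1537, 1785 and 2112 CPM (0.84 ± 0.17, adjusted p = 0.0084). Col3a1, a fibrillar collagen, fell from 3915, 4228 and 3712 CPM to 2496, 1464 and 1728 CPM (-1.06 ± 0.24, adjusted p = 0.0114; lost without ob/ob ND mouse 3, 0.0524). Col4a1 (0.46 ± 0.15) and Col12a1 (0.78 ± 0.24) rose with calls lost with the mouse number as a block (0.0699 and 0.0583) and without any 1 of 4 mice, up to 0.161 and 0.168. Progenitor markers fell in 4 of 12 cases and rose in 1 (median -0.40). Ly6a, the stem cell antigen Sca-1, was at 212, 177 and 121 CPM in WT HFD and 63.7, 58.8 and 60.3 CPM in ob/ob ND (-1.48 ± 0.19, adjusted p = 0.00178). Pi16, a marker of the early progenitor pool, fell by 1.38 ± 0.24 and Cd34 by 0.76 ± 0.13 on the log2 scale. The other falling list member is not named here. Cd248, endosialin, is no list member and was chosen after its values were seen, and it fell by 1.69 ± 0.15. Fmo2, an oxygenase, was the member that rose (1.57 ± 0.36). Ly6a, Pi16 and Cd34 were below lean fat in every ob/ob ND library.

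Most vessel genes did not pass. Of 12 endothelial markers 2 rose, against 13.5% of all genes tested, and none fell (median 0.67), while 11 rose without WT HFD mouse 3 and none without any 1 of WT HFD mice 1 and 2 and ob/ob ND mice 2 and 3. Their sum was 329, 306 and 699 CPM in WT HFD and 597, 764 and 852 CPM in ob/ob ND, so WT HFD mouse 3 lay within the ob/ob range. Vegfc, a lymphatic growth factor, rose from 4.14, 4.08 and 5.83 CPM to 11.2, 16.7 and 19.7 CPM (1.76 ± 0.36, adjusted p = 0.0078). In the hypoxia and angiogenesis list 4 of 18 rose and 1 fell (median 0.46). The falling gene was P4ha1, a collagen prolyl hydroxylase, at 91.7, 82.4 and 71.3 CPM against 41.4, 39.5 and 41.2 CPM (-1.01 ± 0.15, adjusted p = 0.00315). Hif1a rose by 0.53 ± 0.13 (lost without WT HFD mouse 1 or ob/ob ND mouse 3) and Flt1, a VEGF receptor, by 1.06 ± 0.30 (lost without WT HFD mouse 1 or 2 or ob/ob ND mouse 2 or 3). Rising members numbered 9 without WT HFD mouse 3, 1 without WT HFD mouse 1 or ob/ob ND mouse 3 and 2 without the second mouse of either group.

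**Figure D5:**
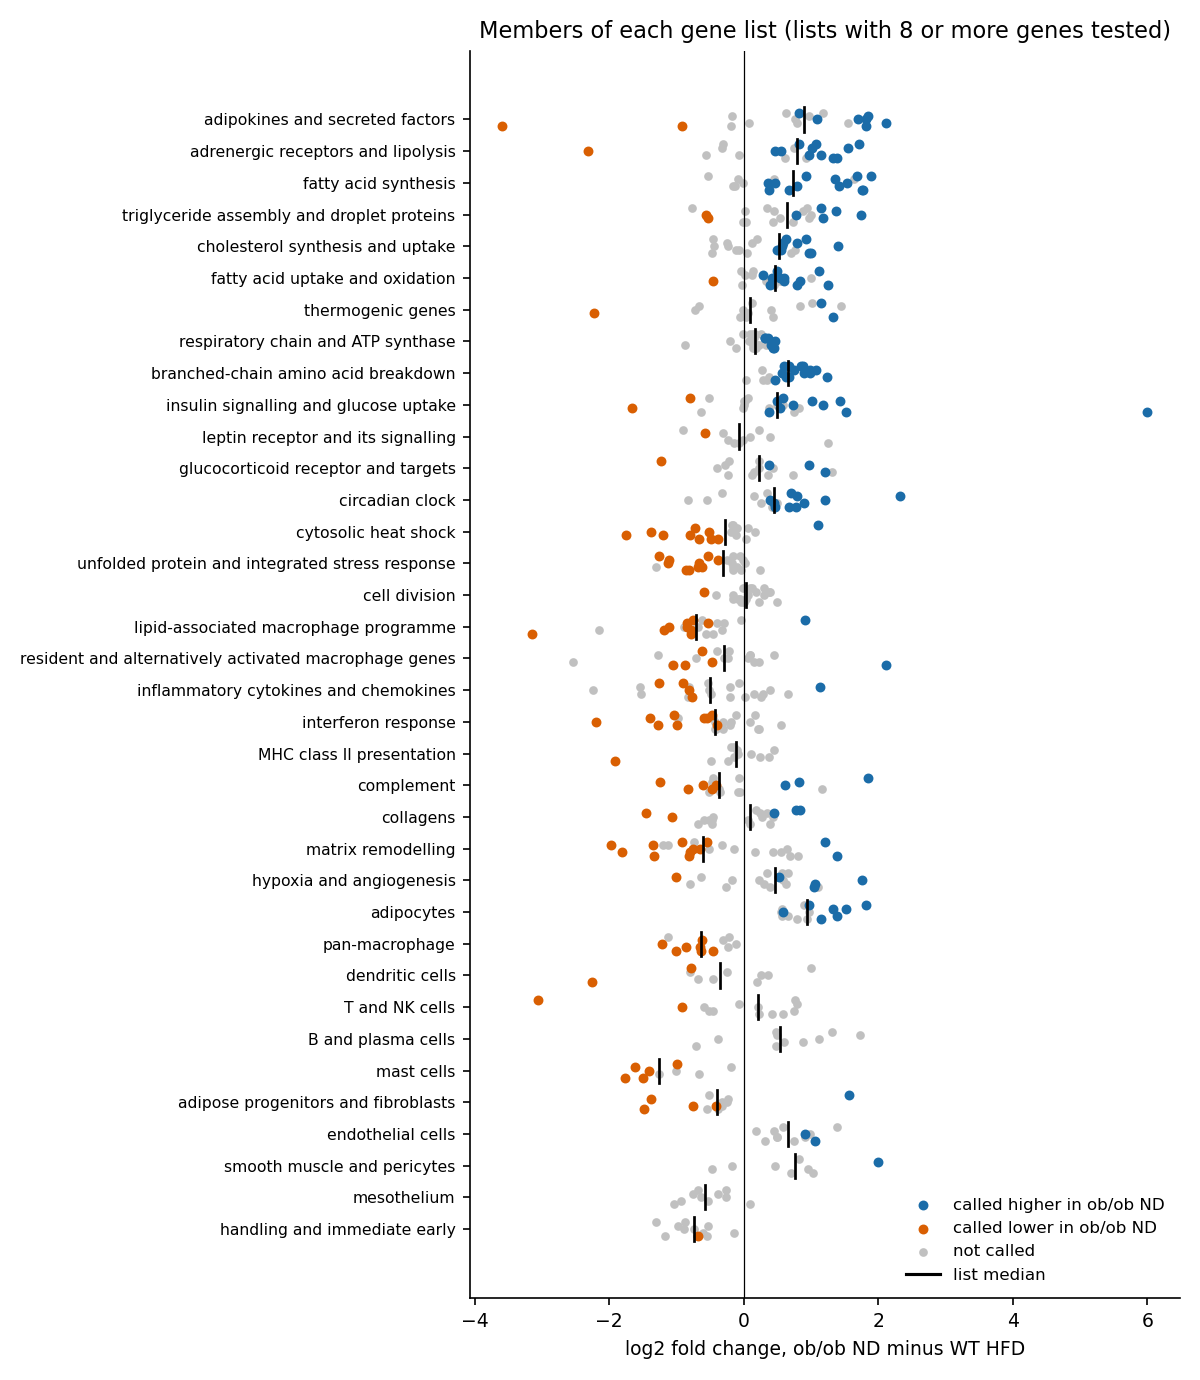
Each point is a tested member of a gene list, placed by its log2 fold change in ob/ob ND minus WT HFD; blue points were called higher and orange points lower in ob/ob ND, grey points were not called, and black bars mark list medians. Metabolic and adipocyte lists lie to the right of 0, and macrophage, mast cell, interferon, chaperone and matrix remodelling lists to the left, by their medians.

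Cell division genes were far above lean fat in both obese groups and differed little between them. All 21 tested members were above lean fat in both obese groups, with medians of 2.61 in ob/ob ND and 2.57 in WT HFD, while between the obese groups only Pcna, the replication clamp, was called (-0.60 ± 0.13, adjusted p = 0.00897) and the median was 0.04. The summed level was 584, 752 and 712 CPM in WT HFD, 697, 537 and 647 CPM in ob/ob ND and 132 to 151 CPM in lean fat.

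A small set of called genes, 161 of 3809, had all 3 lean libraries between the obese groups. By the order of the libraries, the obese groups then lay on opposite sides of lean fat. Genes with this order were not counted over all genes tested. Kcnj15, a potassium channel, was at 6.36, 11.1 and 25.1 CPM in WT HFD, 59.6 to 98.2 CPM in lean fat and 102, 140.3 and 132 CPM in ob/ob ND (3.13 ± 0.42, adjusted p = 0.00214). Lamb3, a laminin chain, was at 2.07, 4.15 and 6.33 CPM, 9.01 to 14.4 CPM and 17, 25.8 and 29.4 CPM in the same order (2.52 ± 0.35, adjusted p = 0.00224). Crisp2 and Mal2, a membrane trafficking protein (2.33 ± 0.29), completed the 4 highest of this kind. S1pr3, a sphingosine-1-phosphate receptor, ran the other way, with 54.7, 35.9 and 22.4 CPM in WT HFD, 14.9 to 20.2 CPM in lean fat and 14.5, 9.67 and 12.1 CPM in ob/ob ND (-1.64 ± 0.35, adjusted p = 0.00964). Tubb3, a tubulin (-2.54 ± 0.53), Rab44 (-1.83 ± 0.28) and Tmem273 (-1.65 ± 0.19) were the others of the 4 lowest. For Kcnj15, S1pr3 and Tubb3 the same test did not call ob/ob ND different from lean fat (adjusted p = 0.216, 0.206 and 0.178). For these genes the side of ob/ob ND rests on the order of 3 libraries a group.

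The ob/ob mice on the high-fat diet gave levels outside the WT HFD range and within or close to the ob/ob ND range for the following genes: Hsph1 (40, 46.8 and 42.7 CPM), Fbn1 (137, 225 and 159.9 CPM) and Hsd17b7 (25.3, 22.1 and 21.7 CPM). They were picked as examples after their values were seen. Other values did not follow that pattern. Mast cell markers summed to 491, 582 and 570.0 CPM, above all 3 ob/ob ND libraries and below all 3 WT HFD libraries. Rab44 was at 3.29, 3.16 and 3.83 CPM, within the WT HFD range of 3.02 to 4.6 CPM. Trem2, at 442, 577 and 501 CPM, overlapped both groups, and the macrophage marker sum, at 8085, 11845 and 8540 CPM, lay on both sides of WT HFD mouse 3. These levels were not tested.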

How the data were processed

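RNA-seq read counts per gene, whole numbers as deposited by the authors, were read for the epididymal fat columns, each matched to a sample by its title. The submitters' processing notes name Trimmomatic 0.36, HISAT2 2.0.5, featureCounts 1.5.0-p2 and GRCm38. Per the file headers, featureCounts 1.5.1 counted exons by gene without a strand option, so reads of genes that overlap on opposite strands cannot be told apart. The protocol text names hearts only. Blood, body composition and weight measures of the same mice were deposited by the authors in separate tables, in other units, named only where the header gives one; 1 column of per-sample values was not used.

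Genes were filtered with filterByExpr (minimum count 10, minimum total 15) and fitted over the 4 epididymal groups (12 libraries) by edgeR 4.0.16's quasi-likelihood test in R 4.3.3 with TMM scaling; adjusted p-values are Benjamini-Hochberg over all genes tested, with a threshold of 0.05. CPM use the scaled library sizes. The deposited counts sum to 12441470 to 14079794 per library. On simulated data for the ob/ob ND and WT HFD comparison (15441 genes), 62 of 100 genes changed 2-fold and 79 of 100 changed 4-fold were recovered, and 12 of 153 calls were false. The simulation changed far fewer genes than were called in the data and drew libraries independently, so these rates need not hold for the data. Phenotypes were compared by exact permutation tests. Promoter windows came from RefSeq.

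Members and lists were chosen with earlier results of these data known. Genes were named by rule: the 12 highest and 12 lowest fold changes among called genes with a regular symbol, average log2 CPM of at least 1 and no overlap, the 4 highest and 4 lowest with lean fat between, up to 4 members of each list with the smallest p, and Lep, Lepr, Adipoq, Adrb3, Trem2, Adgre1 and Ucp1. Other genes, among them Hp, Itgad, Spp1, Timp1, Fn1, Slc2a1, Gys1, Lipe, Plin2, Cfd, Retn, Fasn, Csf1r, Hspb1, Hspa5, Cd248, Atf4, Ddit3, Trib3, Asns and those of the closing section, were chosen after their values were seen. A few rule-named genes are not reported here but count in the fit and the lists. The other settings tried were DESeq2 1.42.0, edgeR scaled by DESeq2's size factors, keeping all genes with a read, a fit of the compared groups alone, the mouse number as a block, and leaving out each mouse. Deviations from the group means correlated at r = 0.271, 0.146 and 0.261 between same-numbered ob/ob ND and WT HFD mice. Differently numbered mice were not compared in this way, so this check cannot show whether the numbers pair the mice. Between ob/ob ND and ob/ob HFD the values were -0.169, -0.223 and 0.076. Lean fat gave -0.156 to 0.086 with ob/ob ND and WT HFD, and 0.084, 0.361 and 0.477 with ob/ob HFD. The labels say nothing of a shared litter or day.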

Additional observations from a re-analysis of the deposited data

How the results depend on the processing

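The count of 3809 genes called between ob/ob ND and WT HFD was 3738 with DESeq2's size factors, 3229 with no filter, 3297 with the replicate block (mouse number), 4261 with DESeq2 and 1588 when only the compared groups were fitted; leaving out 1 mouse gave 1575 to 5456. No gene called in both fits changed direction. The counts against lean fat stayed within 1.5 times of 7558 (5990 to 7007 without single mice) and of 9227 (8144 to 9668). Of 231 single genes examined, 3 lost their call with DESeq2's size factors (Klf9, Col4a1 and Gys1), 7 with no filter (Klf9, Col4a1, Cox5b, Ndufs1, Ndufv1, Nlrp3 and Plin2), 13 with the block and 65 of 227 with only the compared groups fitted, and 3 to 66 without 1 mouse. Without 1 mouse, values that had not passed changed sign: Lyve1 ran from -0.46 to 0.54 (-0.42 without WT HFD mouse 1, -0.46 without ob/ob ND mouse 2). Free fatty acids ran from -7.33 uEq/L (without ob/ob ND mouse 2, which leaves 1 mouse, since mouse 1 has no value) to 263 uEq/L. Triglyceride ran from -8.17 (without WT HFD mouse 2) to 15.3 mg/dL, with -5.33 without ob/ob ND mouse 1 and -1.17 without WT HFD mouse 1. Total water ran from -1.43 to 0.297 (the latter without WT HFD mouse 3). The cause of these changes was not tested. Simulated 2-fold changes were recovered for 62 of 100 genes at this depth and 3 mice a group. Far fewer genes changed in the simulation than were called in the data, so this rate need not hold for the data.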

Other observations

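Genes of the antioxidant response, chosen after their values were seen, were high in WT HFD mice 1 and 2 and lower elsewhere. Prdx1, peroxiredoxin 1, was at 9730.5, 6703 and 1834 CPM in WT HFD, 3080.2, 1428 and 1051 CPM in ob/ob ND and 469 to 579 CPM in lean fat (-1.72 ± 0.55, adjusted p = 0.0442). Srxn1, which repairs peroxiredoxins (-1.50 ± 0.46), the reductases Cbr3 (-1.42 ± 0.41) and Akr1b8 (-1.52 ± 0.46), and Txnrd1, thioredoxin reductase (-1.05 ± 0.29), also fell. All 5 calls were lost without WT HFD mouse 1 or 2 or ob/ob ND mouse 2 or 3, with adjusted p up to 0.171 for Prdx1. Hmox1, Gclm, Gclc, Nqo1 and Slc7a11 did not pass, with adjusted p of 0.0598, 0.0576, 0.108, 0.156 and 0.051; Slc7a11, the cystine transporter, passed with the mouse number as a block (0.0449). Without WT HFD mouse 3 or ob/ob ND mouse 1, Hmox1, Gclm and Slc7a11 passed.

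Serpina3n and Orm1, which encode acute-phase proteins and were chosen after their values were seen, rose. Serpina3n, a serine protease inhibitor, was at 241, 164 and 201 CPM in WT HFD and 503, 713 and 741 CPM in ob/ob ND (1.69 ± 0.19, adjusted p = 0.00129), with lean fat at 448 to 526 CPM. Orm1, orosomucoid, was at 22.1, 31.7 and 73.1 CPM against 112, 193 and 155 CPM (1.86 ± 0.36, adjusted p = 0.00712). The hydroxylases that start serotonin synthesis moved apart, as Tph1 fell (lost without WT HFD mouse 1 or 2 or ob/ob ND mouse 2) and Tph2 rose from 11.3, 16.9 and 51.6 CPM to 94.2, 145 and 158 CPM (2.31 ± 0.45, adjusted p = 0.00706), with lean fat at 3.01 to 4.07 CPM. Oxtr, the oxytocin receptor, rose by 2.93 ± 0.69 (lost without WT HFD mouse 2 or ob/ob ND mouse 3, 0.000651 to 0.0504). Tfrc, the transferrin receptor of most cells, fell by 1.52 ± 0.41 on the log2 scale (lost without WT HFD mouse 1 or 2 or ob/ob ND mouse 2 or 3) while Tfr2 rose.

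Cirbp, a cold-inducible RNA-binding protein, was at 30.4, 27.3 and 39.9 CPM in WT HFD and 80, 78.5 and 75.6 CPM in ob/ob ND (1.26 ± 0.14, adjusted p = 0.00129), with lean fat at 36.7 to 47 CPM and ob/ob HFD at 69.2 to 84.7 CPM. Nnt, the mitochondrial transhydrogenase that is deleted in part in some C57BL/6 substrains, was at 14.9, 20.3 and 17.7 CPM in WT HFD, 35.8, 37.3 and 33.9 CPM in ob/ob ND, 25.7 to 28.7 CPM in lean fat and 30.8 to 33.2 CPM in ob/ob HFD (1.01 ± 0.11, adjusted p = 0.00107). The labels give no strain.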
